A study of Homo sapiens with 8 samples.

Results

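The MUC4 knockdown experiment comprised 4 of the 8 two-colour gene expression arrays of the series, the arrays titled MUC4-KD, on each of which RNA of CAPAN-2 cells labelled as MUC4 knockdown (MUC4-KD) was hybridised together with RNA labelled mock. CAPAN-2 is an established human pancreatic adenocarcinoma cell line. The MUC4-KD clones carried a retroviral pRetroSuper vector expressing a short hairpin RNA against MUC4, the Mock clones carried the empty vector, and both were selected with G418 and isolated by limiting dilution, so that each line was 1 clone. The methods describe 4 MUC4-KD clones, compared with a pool of the RNA of 4 Mock clones, and the labels do not name the clone on each array. The other 4 arrays compared ErbB2-KD clones, made with a puromycin vector against ErbB2, with a pool of NT clones. Since the Mock pool is 1 control sample, each MUC4-KD ratio was tested against 0 and the spread between Mock clones is left out of every p-value. The samples are RNA of whole cultures, in which fewer cells expressing a gene and less of its mRNA per cell cannot be told apart.

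MUC4 is a large membrane-bound mucin, a glycoprotein of the epithelial surface with EGF-like domains. It is hardly made in normal pancreas, appears during pancreatic carcinogenesis, and binds the receptor tyrosine kinase ErbB2. Its knockdown in pancreatic cancer cells is used to ask which genes and signalling pathways depend on it.

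Values are log2 ratios, with the RNA labelled MUC4-KD in the numerator and that labelled Mock in the denominator, so that 1 is a 2-fold difference and a negative ratio means less signal in the RNA labelled MUC4-KD. This RNA was labelled with the dye Cy3 on arrays 1 and 2 and with Cy5 on arrays 3 and 4. Arrays 1 and 3 lay on 1 slide, and arrays 2 and 4 lay on 2 further slides, each shared with ErbB2-KD arrays. Over the 25047 probes tested, the correlations of the ratios, given as a description because the arrays share the Mock pool, were 0.818, 0.83 and 0.675 between arrays 1 and 2, 1 and 3, and 2 and 3. Array 4 stood apart: its ratios correlated with those of the other arrays at 0.324 to 0.52, the standard deviation of its ratios was 0.499 against 0.679 to 0.7, and 56.7% of probes were well above background in its Mock channel against 65.9% to 67.3%. No spot was saturated. Of 18 pancreatic ductal markers, 13 passed background on all 4 arrays in the RNA labelled MUC4-KD and 12 in that labelled Mock, with CDH1, EPCAM, KRT7, KRT8, KRT18, KRT19, ELF3, SOX9 and TFF1 among the latter. The ductal markers AGR2, CEACAM6, CFTR and TSPAN8 were among those not well above background on any array. Among markers of other cell types, PRSS2 of 10 acinar genes and CHGA of 10 islet genes were detected in both RNAs. So were ACTA2, FAP and THY1 of 11 fibroblast genes and CD14, CD68, FCER1G and TYROBP of 12 leukocyte genes. Of 8 endothelial genes none was detected in both RNAs, but TEK and CLDN5 passed background on all 4 arrays in that labelled MUC4-KD. Neither ratio was called by limma (adjusted p = 0.105 and 0.148). PNLIP, GCG, COL1A2, PECAM1 and PTPRC, which define these lineages, were at background on all arrays.

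MUC4 itself was not lower in the RNA labelled MUC4-KD. Its brightest probe, A_24_P239176, gave log2 ratios of 0.47, 0.39, 0.28 and -0.05 on arrays 1 to 4, a mean of 0.27 ± 0.23 (SD, n = 4) that limma did not call (adjusted p = 0.167). The gene table published with the study runs in the opposite direction to the deposited ratios of this comparison, so the sign of all values given here follows the labels and is not settled. With the sign turned, each higher gene becomes a lower one with the same size and the same p. The means of its other probes were above 0 as well. Probe A_24_P208825 had ratios of 1.71, 2.34, 2.21 and 1.08, all above 0, with a mean of 1.84 ± 0.57 (SD, n = 4), at an adjusted p = 0.00806 in limma. Probe A_24_P239183 had ratios of 1.71, 1.96, 1.58 and 0.10, of which array 4 was the lowest, with a mean of 1.34 ± 0.84 (SD, n = 4), at an adjusted p = 0.0355 in limma. Probe A_24_P239177 averaged 0.41 ± 0.33 (SD, n = 4), at an adjusted p = 0.0983 in limma. In all, 2 of 4 MUC4 probes were called, both higher in the RNA labelled MUC4-KD. The values of 1 gene differed this much between probes that all carry the accession NM_018406.

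**Figure D1:**
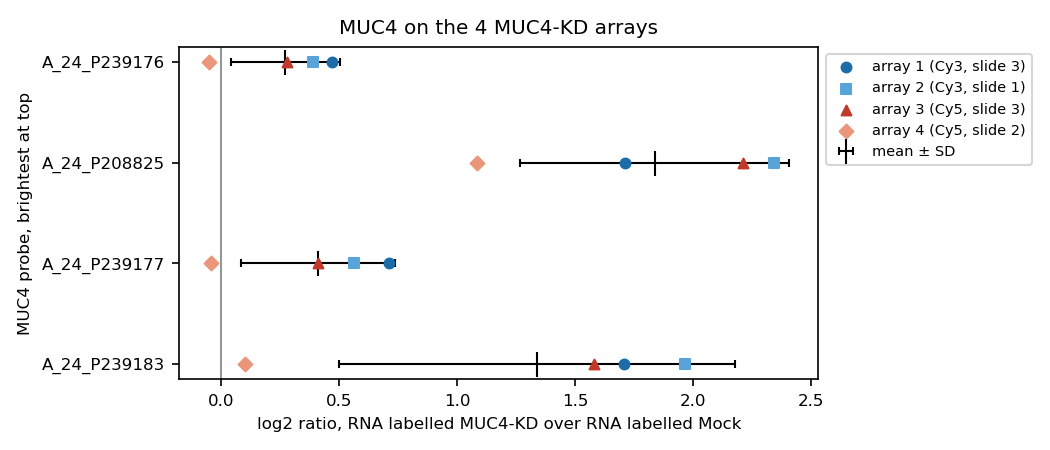
Log2 ratio of the RNA labelled MUC4-KD over that labelled Mock (x axis) for the 4 MUC4 probes, brightest at the top, on arrays 1 to 4 (coloured points), with the mean and SD in black. The brightest probe lies close to 0, with a mean of 0.27, and the means of probes A_24_P208825 and A_24_P239183 lie at 1.84 and 1.34.

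Across the array, limma called 5127 of 25047 probes tested (20.5%) at an adjusted p under 0.05, of which 3003 gave more signal in the RNA labelled MUC4-KD and 2124 (8.48%) less. At 2-fold or more, 1545 probes (6.17%) were called, 929 (3.71%) higher and 616 (2.46%) lower. For 5106 of the called probes all arrays went the same way. With each gene represented by its brightest tested probe, 2846 of 12289 genes (23.2%) were called, 1508 (12.3%) higher and 1338 (10.9%) lower, and their median ratio was -0.01. These shares over all genes are the background against which the gene groups below are read. The calls depended on which arrays were included and on the loess normalisation. Without array 1, 2, 3 or 4 the number of probes called was 590, 961, 154 or 9344. In all, 115 genes were called with each array left out in turn. When each array was centred on its median in place of loess, 1 probe was called after adjustment and 2175 had an unadjusted p under 0.05, and no gene of any list below was called.

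Highest in the RNA labelled MUC4-KD was TGFBI, a secreted matrix protein induced by TGF-beta, at 4.37, 3.56, 4.15 and 4.12 on arrays 1 to 4. Its mean was 4.05 ± 0.35 (SD, n = 4), a fold of 16.6 (limma adjusted p = 0.000988), and the arrays lay close together. ANGPTL4, a secreted inhibitor of lipoprotein lipase, followed at 4.37, 4.63, 4.22 and 2.47 (adjusted p = 0.00406), with array 4 the lowest. The chemokine CCL2 had ratios of 4.62, 4.69, 4.05 and 0.80 (adjusted p = 0.0216). In the RNA labelled Mock it was on no array well above background, so it was tested through the RNA in which it is bright. By the mean over the 4 arrays it was at least 10.6-fold higher in that labelled MUC4-KD, a bound that array 4 alone did not reach. LTB, which encodes lymphotoxin beta of the TNF family, had ratios of 3.28, 4.38, 2.99 and 3.25 (adjusted p = 0.00231), the lowest of them still above the mean of LOX. The other genes among the 12 largest were IL1B, EMP2, MAGEA10, UBD, MYEOV, DEPP1, NDRG1 and LOX, with means of 2.85 to 3.30. EMP2, a tetraspan membrane protein, was likewise at background in the RNA labelled Mock. By the mean of its brighter probe over the 4 arrays it was at least 9.45-fold higher, but its ratio on array 4 was 0.74. Its other probe, also called, averaged 1.57.

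Lowest was S100P, a calcium-binding protein abundant in pancreatic cancer, at -4.54, -4.25, -4.42 and -3.73. Its mean was -4.24 ± 0.35 (SD, n = 4), a fold of 18.8 (limma adjusted p = 0.000988). The interferon-inducible GTPase gene MX2 had -4.37, -3.90, -4.13 and -3.57 (adjusted p = 0.000988), and OASL, an antiviral oligoadenylate synthetase-like gene, had -4.50, -3.49, -4.11 and -3.71 (adjusted p = 0.00138). In these genes no array came closer to 0 than -3.49. OVOL1, a zinc finger factor of epithelial differentiation, had -4.08, -3.01, -3.80 and -2.69 (adjusted p = 0.00272), and NNMT, which methylates nicotinamide, -3.59, -2.98, -3.43 and -3.16 (adjusted p = 0.00102). GDF15, a stress-induced cytokine, had -3.04, -2.67, -3.20 and -3.32 (adjusted p = 0.00138), again with arrays close together. The others among the 12 lowest were BEX2, IFIT1, IFIT3, IFI44L, KLHDC7B and PSG8, with means of -3.12 to -3.66. Of the 24 genes, CCL2, EMP2, MAGEA10, LOX, IFIT3 and PSG8 were called in 1 of the 4 fits that left out an array, and their ratios on array 4 were the smallest in size of the 4.

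**Figure D2:**
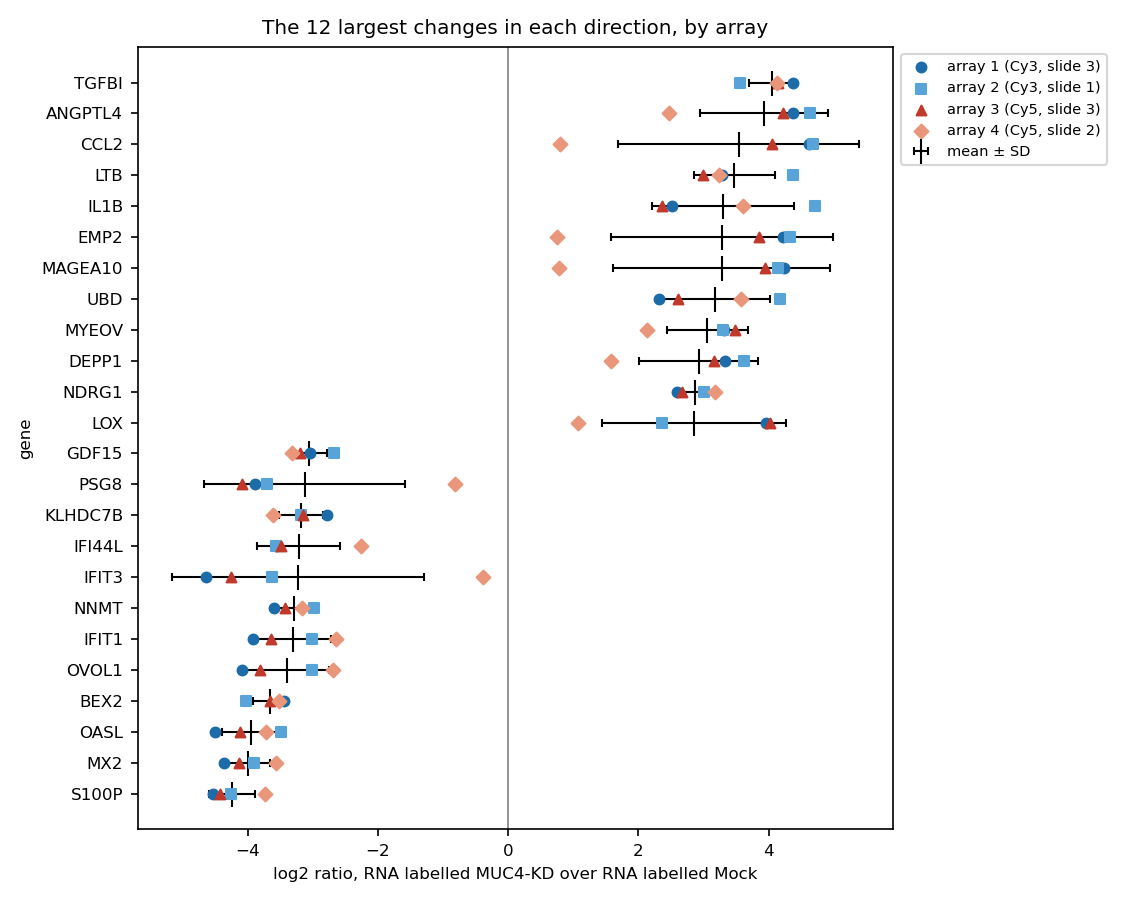
Log2 ratio of the RNA labelled MUC4-KD over that labelled Mock (x axis) for the 12 genes with the largest called difference in each direction (y axis), with 1 point for each array and the mean and SD in black. TGFBI is at the high end with a mean of 4.05 and S100P at the low end with a mean of -4.24, and for CCL2, EMP2, MAGEA10, IFIT3 and PSG8 array 4 lies far closer to 0 than the other arrays.

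**Figure D3:**
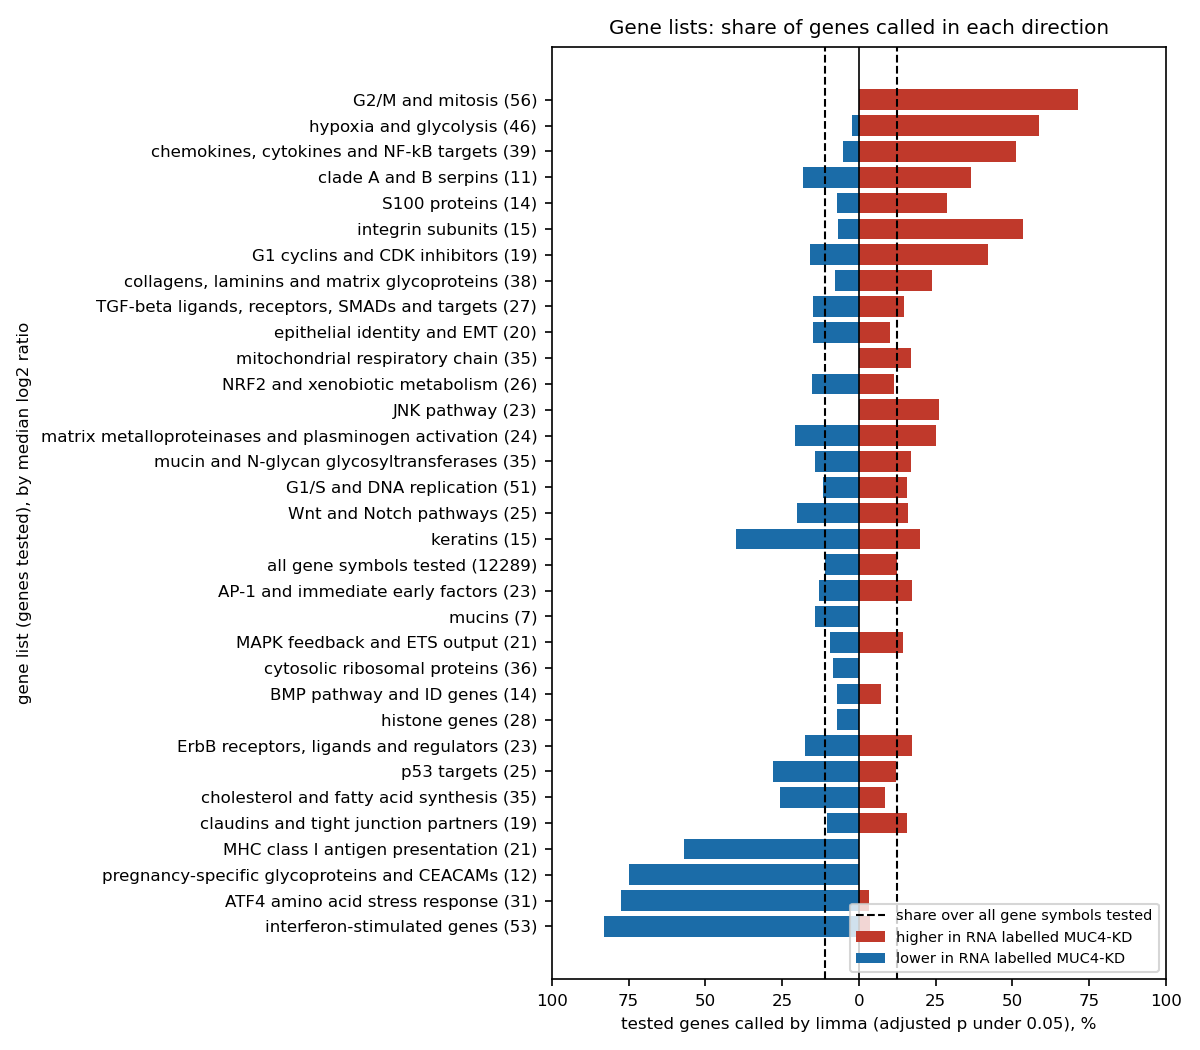
Share of the tested genes of each list (y axis, number tested in brackets, ordered by median log2 ratio) that limma called higher (red, right) or lower (blue, left) in the RNA labelled MUC4-KD, in percent, with dashed lines at the shares over all genes, 12.3% and 10.9%. Interferon-stimulated genes, ATF4 response genes and pregnancy-specific glycoproteins extend furthest to the left, at 83.0%, 77.4% and 75.0%, and G2/M and hypoxia genes furthest to the right, at 71.4% and 58.7%. Genes well above background in only 1 of the RNAs are included.

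Interferon-stimulated genes are the antiviral programme switched on when interferons activate transcription factors of the STAT and IRF families. Their promoters carry the interferon-stimulated response element (ISRE). Of 53 such genes tested, 44 (83.0%) were lower in the RNA labelled MUC4-KD, 41 of them by 2-fold or more, and 2 were higher, against 10.9% and 12.3% of all genes. The list's median ratio was -1.85, and its medians on arrays 1 to 4 were -2.21, -1.84, -2.08 and -1.07. Without array 1, 2, 3 or 4 the number called lower was 29, 31, 17 or 49. Of all genes of the list tested, 40 had a promoter in the RefSeq table (250 bases before to 50 after the start of transcription). The core of the ISRE, searched as GAAA, any 2 bases and GAAA again, or TTTC, any 2 bases and TTTC on the other strand, occurred in 27 of the 40 (67.5%), in 23 of the 33 called lower and 4 of the 7 others, and in 4.38% of 27305 genes with a promoter. These sequences show the element, in capitals, upstream of the start of the 4 most strongly lowered genes that hold it (5′ to 3′ on the strand of the gene, RefSeq, GRCh38.p14; for genes with more than 1 start, the match nearest to a start). A match of letters does not show that a factor binds there.
IFIT1 (chr10:89392485-89392564, plus strand): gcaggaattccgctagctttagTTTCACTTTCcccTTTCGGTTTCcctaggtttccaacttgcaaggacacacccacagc
IFIT3 (chr10:89332443-89332522, plus strand): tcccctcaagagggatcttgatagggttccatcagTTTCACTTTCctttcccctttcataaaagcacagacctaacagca
IFI44L (chr1:78620340-78620419, plus strand): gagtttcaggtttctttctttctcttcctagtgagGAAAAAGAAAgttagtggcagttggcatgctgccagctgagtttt
MX1 (chr21:41431819-41431898, plus strand): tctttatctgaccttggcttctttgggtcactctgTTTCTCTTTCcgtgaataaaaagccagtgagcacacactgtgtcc

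The effectors of this programme carried the largest differences. IFIT1, whose protein binds viral RNA caps, had ratios of -3.91, -3.0, -3.64 and -2.65, a mean of -3.30 ± 0.58 (SD, n = 4), at an adjusted p = 0.00231 in limma. IFI44L was at -3.56, -3.56, -3.48 and -2.27 (adjusted p = 0.00284), MX1 at -3.59, -3.0, -3.11 and -2.39 (adjusted p = 0.00231) and ISG15, a ubiquitin-like modifier, at -3.52, -3.01, -2.72 and -2.72 (adjusted p = 0.00189). None of these arrays came closer to 0 than -2.27. IFIT3 was at -4.63, -3.62 and -4.25 on arrays 1 to 3 and at -0.39 on array 4 (adjusted p = 0.0293). The IFIT genes resemble each other in sequence, so signal shared between them cannot be set aside. BST2 (tetherin) was at -2.88, -2.75, -2.79 and -2.06 (adjusted p = 0.00231).

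Several transducers and sensors of the pathway were lower too. The factor IRF7 averaged -1.76 ± 0.25 (SD, n = 4), at an adjusted p = 0.00282 in limma. IRF9 averaged -1.27 ± 0.52 (adjusted p = 0.0161) and RIGI, a sensor of viral RNA, -2.03 (adjusted p = 0.00231). STAT2 had a mean of -0.74 and was not called (adjusted p = 0.0531). The exceptions that were higher were IRF1, at 0.57, 0.68, 0.60 and 0.97 (adjusted p = 0.0175), and SP100, at a mean of 0.79 (adjusted p = 0.0179), whose 3 probes ranged from -1.30 to 0.79 and therefore disagree in direction.

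MHC class I genes, which present peptides to T cells, are partly under interferon control. Of 21 tested, 12 (57.1%) were lower and none was higher, with a median of -0.53. Without array 1, 2, 3 or 4, 5, 6, 3 or 14 were called lower. Among the heavy chains, HLA-E was at -1.76, -1.97, -1.43 and -1.57 (limma adjusted p = 0.00291) and HLA-F at -1.38, -1.52, -1.70 and -1.84 (adjusted p = 0.00284), both even across arrays. HLA-B was at -2.81, -2.80, -1.01 and -1.53 (adjusted p = 0.0165) and HLA-C at a mean of -1.67. These chains are near-identical over long stretches, and their probes may share signal. The light chain B2M was at -1.09, -1.49 and -1.01 on arrays 1 to 3 and at 0.00 on array 4 (adjusted p = 0.0492). TAP1, a subunit of the peptide transporter, was at -1.32, -1.34, -1.12 and -1.08 (adjusted p = 0.00402).

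**Figure D4:**
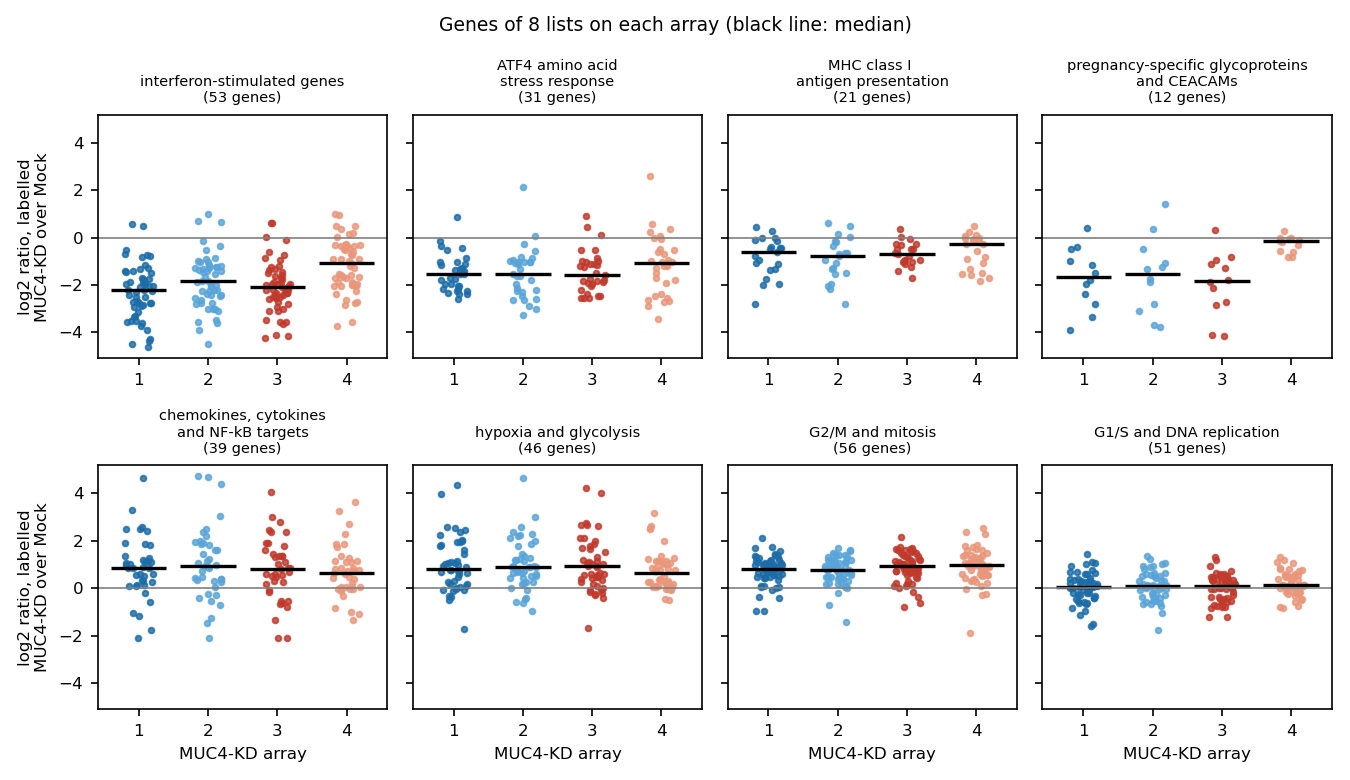
Log2 ratios of the RNA labelled MUC4-KD over that labelled Mock (y axis) of every tested gene of 8 lists (points) on each of the 4 arrays (x axis), with the median as a black line. Medians of the interferon list are -1.07 or lower on each array, medians of the G2/M list are between 0.76 and 0.97, and the median of the pregnancy-specific glycoprotein list is between -1.84 and -1.54 on arrays 1 to 3 and -0.17 on array 4.

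ATF4 is the transcription factor of the integrated stress response, which raises amino acid synthesis and uptake when amino acids are short or protein folding is disturbed. Of 31 genes of this response tested, 24 (77.4%) were lower in the RNA labelled MUC4-KD, 20 of them by 2-fold or more, and 1 was higher, against 10.9% and 12.3% of all genes. The median was -1.62, with medians of -1.55, -1.52, -1.58 and -1.08 on arrays 1 to 4. Without array 1, 2, 3 or 4 the number called lower was 17, 20, 9 or 27. The C/EBP-ATF element, searched as TGATGNAA and its complement TTNCATCA, occurred in 7 of 26 promoters of the list (26.9%), in 6 of the 20 called lower and 1 of the 6 others, and in 4.46% of all genes with a promoter. The 4 most strongly lowered genes that hold it upstream of their start were these, with the element in capitals.
ASNS (chr7:97872434-97872511, minus strand): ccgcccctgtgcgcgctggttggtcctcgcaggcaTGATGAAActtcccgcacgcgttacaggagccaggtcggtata
SLC1A5 (chr19:46784869-46784946, minus strand): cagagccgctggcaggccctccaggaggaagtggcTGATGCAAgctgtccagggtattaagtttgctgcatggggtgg
CEBPG (chr19:33374036-33374112, plus strand): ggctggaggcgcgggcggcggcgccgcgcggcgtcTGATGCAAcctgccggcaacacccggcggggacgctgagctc
CHAC1 (chr15:40953227-40953304, plus strand): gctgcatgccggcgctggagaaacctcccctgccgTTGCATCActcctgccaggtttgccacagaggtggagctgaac

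TRIB3, a pseudokinase that feeds back on ATF4, had ratios of -2.39, -3.28, -2.55 and -3.44, a mean of -2.92 ± 0.52 (SD, n = 4), at an adjusted p = 0.00264 in limma. Asparagine synthetase, ASNS, was at -2.59, -3.03, -2.55 and -2.54 (adjusted p = 0.00138). Genes of serine and cysteine synthesis were lower as well, PSPH at -2.05, -2.61, -2.22 and -2.89 (adjusted p = 0.00231) and CTH at -1.69, -2.90, -1.78 and -2.74 (adjusted p = 0.00588). PSPH was called with 2 of its 3 probes. SLC7A11, the cystine transporter, was at -2.25, -2.61, -2.40 and -1.05 (adjusted p = 0.00894), with all 3 of its probes called. PCK2, the mitochondrial phosphoenolpyruvate carboxykinase, averaged -2.41 ± 0.22 (adjusted p = 0.00176) and NUPR1, a stress-induced nuclear protein, -2.37 ± 0.24 (adjusted p = 0.00189). ATF4 mRNA itself was at -0.85, -1.0, -0.86 and -0.99 (adjusted p = 0.00651), a smaller and even difference, called with 1 of its 2 probes. The gene that went the other way was DDIT4, an inhibitor of mTORC1 that hypoxia also induces, at 0.87, 2.12, 0.89 and 2.61 (adjusted p = 0.0256).

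Genes of the G2 phase and mitosis gave more signal in the RNA labelled MUC4-KD. Of 56 tested, 40 (71.4%) were called higher and none lower, against 12.3% and 10.9% of all genes, and 23 of them by 2-fold or more. The median ratio was 0.87, with medians of 0.82, 0.76, 0.91 and 0.97 on arrays 1 to 4, so that array 4 did not stand apart here. Without array 1, 2, 3 or 4, 22, 25, 4 or 42 were called higher. Many promoters of such genes carry the cell cycle homology region (CHR), searched here as TTTGAA and TTCAAA. It occurred in 32 of 47 promoters of the list (68.1%), in 26 of the 34 called higher and 6 of the 13 others, and in 18.2% of all genes with a promoter. It is shown in capitals upstream of the start of the 4 most strongly raised genes that hold it.
ANLN (chr7:36389807-36389861, plus strand): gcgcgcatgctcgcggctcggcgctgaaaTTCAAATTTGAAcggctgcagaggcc
BUB1B (chr15:40161011-40161068, plus strand): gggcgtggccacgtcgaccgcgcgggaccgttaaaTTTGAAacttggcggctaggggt
DLGAP5 (chr14:55191654-55191729, minus strand): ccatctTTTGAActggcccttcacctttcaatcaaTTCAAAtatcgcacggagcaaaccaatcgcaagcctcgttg
CDK1 (chr10:60778430-60778477, plus strand): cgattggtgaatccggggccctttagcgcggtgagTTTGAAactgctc

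ANLN, an actin-binding protein of the cytokinetic furrow, had 1.72, 1.69, 1.75 and 1.76, a mean of 1.73 ± 0.03 (SD, n = 4), at an adjusted p = 0.00201 in limma. The kinesin gene KIF20A had 2.12, 1.57, 2.17 and 1.05 (adjusted p = 0.00805). Spindle checkpoint kinases followed, BUB1 at 1.71, 1.62, 1.64 and 1.18 (adjusted p = 0.00365) and BUB1B at 1.41, 1.47, 1.66 and 1.38 (adjusted p = 0.00272). CDK1, the mitotic kinase, was at 1.46, 1.44, 1.15 and 1.62 (adjusted p = 0.00365), and its cyclin CCNB1 averaged 0.99 (adjusted p = 0.0108). The proliferation marker MKI67 averaged 0.90 (adjusted p = 0.0127). Genes of the G1/S transition and DNA replication showed no such shift. Of 51 tested, 8 were higher and 6 lower, with a median of 0.09. RRM2, a subunit of ribonucleotide reductase, was at 1.43, 0.94, 1.32 and 1.30 (adjusted p = 0.00523), called with 1 of 2 probes, the other averaging 0.15. MCM3 of the replicative helicase was at -1.51, -0.75, -1.22 and -0.27 (adjusted p = 0.0347). Histone genes gave 0 higher and 2 lower of 28.

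Among G1 cyclins and CDK inhibitors, 8 of 19 were higher and 3 lower, with a median of 0.38. CDKN1A, the p21 inhibitor, was lower and even, at -1.21, -1.28, -1.15 and -1.23 (limma adjusted p = 0.00348), called with 1 of 2 probes. CDKN1C, the p57 inhibitor, was at 3.59, 1.45, 3.87 and 0.83, with arrays 1 and 3, which shared a slide, well above arrays 2 and 4 (adjusted p = 0.0327). Slide and clone cannot be told apart in such splits. CCNG2, an atypical cyclin of quiescent cells, averaged 1.91 ± 0.23 (adjusted p = 0.00231), called with 2 of 3 probes, and the INK4 inhibitor CDKN2D 1.52 ± 0.14 (adjusted p = 0.00272). CDKN1B, the p27 inhibitor, averaged 0.88 (adjusted p = 0.0133) and CCND1, cyclin D1, 0.65 (adjusted p = 0.0221), each with 1 probe called, of 2 and of 3. Of 25 targets of p53, 3 were higher and 7 lower (median -0.25). Besides GDF15 and CDKN1A these included AEN, a nuclease, with a mean of -1.40 (adjusted p = 0.0195), and PLK2, a kinase of the polo family that went the other way at 2.04, 2.38, 1.94 and 1.82 (adjusted p = 0.00231).

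Hypoxia and glycolysis genes, most of them targets of HIF-1, were higher. Of 46 tested, 27 (58.7%) were called higher, 20 of them by 2-fold or more, and 1 was lower. The median was 0.81, with medians of 0.81, 0.87, 0.91 and 0.62 on arrays 1 to 4. Without array 1, 2, 3 or 4, 12, 16, 3 or 30 were called higher. NDRG1 had 2.60, 3.01, 2.67 and 3.17, a mean of 2.86 ± 0.27 (SD, n = 4), at an adjusted p = 0.00138 in limma. BNIP3, a mitophagy receptor, was at 2.26, 1.98, 2.66 and 1.99 (adjusted p = 0.00231) and lactate dehydrogenase LDHA at 2.02, 2.18, 1.97 and 2.55 (adjusted p = 0.00231), with all 3 of its probes called. Carbonic anhydrase CA9 was at 2.44, 2.59 and 2.63 on arrays 1 to 3 and at 0.40 on array 4 (adjusted p = 0.0241). LOX, which cross-links collagen, was at 3.96, 2.37, 4.01 and 1.08 (adjusted p = 0.0194). Of the oxygen-regulated subunits, HIF1A was higher, at 1.42, 0.95, 1.54 and 0.73 (adjusted p = 0.012), and EPAS1 lower, at -1.71, -0.64, -1.70 and -0.49 (adjusted p = 0.0325). VEGFA had a mean of -0.16 at its brightest probe and was not called, although 2 of its 4 probes were, and the glucose transporter SLC2A1 averaged -0.05 and was not called. Genes of the mitochondrial respiratory chain gave 6 higher and none lower of 35, with a median of 0.20.

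Chemokines, cytokines and NF-kB targets are the inflammatory output of epithelial cells. Of 39 tested, in the RNA labelled MUC4-KD, 20 (51.3%) were higher and 2 lower, with a median of 0.79. Without array 1, 2, 3 or 4, 10, 12, 4 or 23 were called higher. Beside CCL2 and LTB, the interleukins led. IL1B was at 2.51, 4.71, 2.36 and 3.61 (limma adjusted p = 0.00778) and IL1A at 1.89, 3.03, 1.90 and 2.71 (adjusted p = 0.00459), both with arrays 2 and 4 above arrays 1 and 3. BIRC3, an inhibitor of apoptosis and NF-kB target, was at 1.82, 2.47, 1.80 and 2.29 (adjusted p = 0.00272). CXCL1, which draws neutrophils, was at 1.87, 2.22, 1.62 and 1.73 (adjusted p = 0.00272). Smaller differences were called for the NF-kB inhibitor NFKBIA, with a mean of 1.14 (adjusted p = 0.00586), for IL6 at 0.81 (adjusted p = 0.0178) and for CXCL8 at 0.51 (adjusted p = 0.0329). The lower members were CX3CL1, at -0.58, -2.12, -0.69 and -1.34 (adjusted p = 0.0337), and CXCL11, itself an interferon target, at -1.77, -1.47, -2.11 and -0.03 (adjusted p = 0.0419).

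TGF-beta signalling runs from secreted ligands through the receptors TGFBR1 and TGFBR2 to the SMAD factors. Its list held 4 higher and 4 lower genes of 27, with a median of 0.26. TGFBR2 was at 2.45, 2.37, 2.48 and 2.04 (limma adjusted p = 0.00176), called with 1 of 2 probes, and SMAD3 at 1.70, 2.35, 1.98 and 2.00 (adjusted p = 0.00231), the arrays of both lying close together. The matrix glycoprotein THBS1, a TGF-beta target that also activates the latent ligand, was lower at -1.97, -2.23, -1.66 and -1.46 (adjusted p = 0.00364). INHBB, an activin subunit, was at -3.13, -2.14, -3.19 and -0.44 (adjusted p = 0.0275). TGFB1 itself had a mean of 0.44 and was not called (adjusted p = 0.104). In the BMP and ID list 1 of 14 was higher, ID1, and 1 lower, the activin-binding FST.

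Cell adhesion and matrix genes moved in both directions. Of 15 integrin subunits 8 were higher and 1 lower, with a median of 0.62. ITGAV was at 1.13, 1.08, 1.34 and 1.49 (limma adjusted p = 0.00459), called with 1 of 2 probes, and the laminin receptor subunit ITGA6 at 1.08, 1.38, 1.19 and 0.89 (adjusted p = 0.00604). ITGB7, a subunit known from lymphocytes, was at -1.96, -2.80, -1.94 and -2.83, with arrays 2 and 4 below arrays 1 and 3 (adjusted p = 0.00364). Collagens, laminins and matrix glycoproteins gave 9 higher and 3 lower of 38 (median 0.37). COL8A1 was at 2.28, 2.05, 2.64 and 0.41 (adjusted p = 0.0244) and LAMA3, a chain of laminin-332, at 0.81, 1.36, 0.94 and 1.35 (adjusted p = 0.00861). The list of metalloproteinases and plasminogen activation gave 6 higher and 5 lower of 24 (median 0.17). Gelatinase MMP9 was at 1.91, 2.32, 1.47 and 0.99 (adjusted p = 0.0102) and tissue plasminogen activator PLAT at 1.29, 1.68, 1.43 and 1.39 (adjusted p = 0.00313), while the sheddase ADAM8 was at -1.25, -0.92, -1.72 and -1.45 (adjusted p = 0.00712). Of 11 serpins, 4 were higher and 2 lower (median 0.72), SERPINA3 leading at 2.51, 3.75, 2.32 and 0.68 (adjusted p = 0.0244). Of 14 S100 genes, 4 were higher and 1, S100P, was lower (median 0.65). S100A2 was at 2.27, 2.31, 1.65 and 1.04 (adjusted p = 0.00899). Of the genes used as fibroblast markers, 2 of the 3 that were tested, FAP and ACTA2, were called higher, and THY1 was not called. COL1A2, DCN, PDGFRB and POSTN were not well above background on any array. A relation of these markers to the matrix results was not tested.

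Keratins, the intermediate filaments of epithelia, gave 3 higher and 6 lower of 15, with a median of 0.03. The hair keratin KRT81 was at -2.42, -3.63, -2.66 and -3.47 (limma adjusted p = 0.00284) and KRT83 at -1.58, -2.60, -1.96 and -0.92 (adjusted p = 0.013). These keratins are near-identical and may share signal. The basal keratins KRT14, KRT16 and KRT17 averaged -1.10, -1.23 and -1.27 (adjusted p = 0.0145, 0.016 and 0.0135). Of the simple keratins of ductal cells KRT19 was higher, at 0.90, 0.95, 1.17 and 1.05 (adjusted p = 0.00586), and KRT7, KRT8 and KRT18 were not called. In the list of epithelial identity and EMT 2 of 20 were higher and 3 lower (median 0.20). Beside OVOL1, the splicing factor ESRP1 was at -1.35, -0.90, -1.42 and -0.39 (adjusted p = 0.0233), and the EMT factor TWIST1 at 1.20, 1.04, 1.14 and 0.62 (adjusted p = 0.0105). Claudins and their partners gave 3 higher and 2 lower of 19 (median -0.38). CLDN3 was at -2.16, -0.69, -2.74 and -0.58 (adjusted p = 0.0426), with arrays 1 and 3 lower than arrays 2 and 4, and was called with 1 of 2 probes.

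Pregnancy-specific glycoproteins and CEACAMs, secreted and membrane members of the carcinoembryonic antigen family, gave 9 lower (75.0%) and none higher of 12, with a median of -1.31. All lower members but CEACAM1 were PSG genes. PSG1, PSG2 and PSG3 among them, and PSG11, which was not called, were well above background only in the RNA labelled Mock. These genes were tested through the RNA in which they are bright, and the share of 75.0% includes them. PSG8 was at -3.88, -3.71, -4.09 and -0.81 (limma adjusted p = 0.0194) and PSG6 at -3.35, -3.75, -4.15 and -0.84 (adjusted p = 0.0193). The PSG genes are near-identical in sequence, so their ratios may rest on shared signal. Array 4 lay close to 0 for most of them, and its median over the list was -0.17 against -1.66, -1.54 and -1.84. No gene of the list was called without array 1, 2 or 3, and without array 4 10 were lower and 1 higher.

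In the ErbB family, to which the partner of MUC4 belongs, EGFR was the receptor that was called. It was at 1.48, 1.76, 1.17 and 1.39, a mean of 1.45 ± 0.24 (SD, n = 4), at an adjusted p = 0.00402 in limma, and was called with each array left out in turn. ERBB2 had a mean of -0.24 (adjusted p = 0.497) and ERBB3 of -0.64 (adjusted p = 0.0506), neither called, and ERBB4 was not well above background. The ratios of ERBB3 were -0.89, -0.95, -0.64 and -0.05, just short of the threshold, and it was called in 1 of the 4 fits that left out an array. The ErbB ligands betacellulin (BTC) and amphiregulin (AREG) were lower, with means of -1.38 and -1.17 (adjusted p = 0.021 and 0.0477). LRIG1, a negative regulator of these receptors, was at 3.16, 3.03, 3.11 and 0.60 (adjusted p = 0.0205). The list as a whole gave 4 higher and 4 lower of 23 (median -0.19). Of 7 mucins tested, none was higher and 1 was lower, OVGP1, at a mean of -0.76 (adjusted p = 0.0266). MUC1 was not called: it was at -1.81, 0.58 and -0.02 on arrays 1, 2 and 4, array 3 having lost its spot to an outlier flag (mean -0.42, adjusted p = 0.541). Enzymes that build mucin and N-linked glycans gave 6 higher and 5 lower of 35 (median 0.15). GALNT14, which starts mucin-type glycans, was at 2.79, 3.03, 2.57 and 0.26 (adjusted p = 0.0292), and the fucosyltransferase FUT1 at -2.22, -1.29, -2.11 and -1.40 (adjusted p = 0.00646).

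The remaining signalling and metabolic lists are read against the same background of 12.3% higher and 10.9% lower. Of 23 JNK pathway genes 6 (26.1%) were higher, none of them by 2-fold or more, and none lower (median 0.18). Without array 1, 2, 3 or 4, 0, 0, 0 or 7 were called higher. DUSP10, a phosphatase of JNK and p38, was highest at a mean of 0.93 (limma adjusted p = 0.0258), called with 1 of 2 probes. AP-1 and immediate early factors gave 4 higher and 3 lower of 23 (median -0.01). FOS was at 1.03, 2.91, 1.15 and 1.32 (adjusted p = 0.0261), and FOSB at -1.99, -1.71, -1.89 and -1.23 (adjusted p = 0.00402). MAPK feedback and ETS output gave 3 higher and 2 lower of 21 (median -0.11). Cholesterol and fatty acid synthesis gave 3 higher and 9 (25.7%) lower of 35 (median -0.32), led by the regulator SREBF1 at -1.37, -1.24, -1.67 and -1.77 (adjusted p = 0.00382). Without array 1, 2, 3 or 4, 1, 2, 0 or 11 of its genes were called lower. NRF2 and xenobiotic metabolism gave 3 higher and 4 lower of 26 (median 0.20), with GCLC, which starts glutathione synthesis, at a mean of -1.26 (adjusted p = 0.0165). Wnt and Notch genes gave 4 higher and 5 (20%) lower of 25 (median 0.08). Cytosolic ribosomal proteins gave none higher and 3 lower of 36 (median -0.12). Of the genes whose products the study followed by other methods, beside those above, PTK2, focal adhesion kinase, averaged 0.87 (adjusted p = 0.013). BAX (-0.28), BCL2L1 (-0.47), MMP7 (0.17), MAPK3 (-0.05), MAPK14 (-0.28) and AKT1 (0.01) were not called. MMP2 was not well above background.

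Some genes were well above background in only 1 of the RNAs. On all 4 arrays, 35 genes were detected in the RNA labelled MUC4-KD and on none in that labelled Mock. In the opposite case were 51 genes. Since these genes were tested through the RNA in which they are bright, the number of them called is not given as a result. They stay in the counts of genes and lists above, with CCL2, CXCL6, GRHL3, PSG1, PSG2 and PSG3 among those called.

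The ErbB2-KD arrays, made with the same array type, were set beside these differences. On them ERBB2 itself averaged -0.40 over NT at the probe used here, which limma did not call (adjusted p = 0.145). Between the MUC4-KD and ErbB2-KD ratios, limma called 2561 of 25835 probes (9.91%), with MUC4-KD above at 1679 (6.50%) and below at 882 (3.41%). The test takes the signs of both experiments from the labels, and with those of MUC4-KD turned, an alternative chosen after the data were seen, 4433 probes were called. By gene, MUC4-KD was above ErbB2-KD at 6.69% and below at 4.85% of 12289. For G2/M genes it was above at 20 of 56 and below at none, and the ErbB2-KD median was 0.21. In the hypoxia list it was above at 20 of 46, and in the chemokine list at 15 of 39, with a median of -0.57 in ErbB2-KD. For interferon-stimulated genes it was below at 20 of 53, although the ErbB2-KD median was negative too, at -0.73. For MHC class I genes no difference was called, and the ErbB2-KD median was -0.75 against -0.53. In the ATF4 list MUC4-KD was below at 9 of 31 and above at 1, and the ErbB2-KD median was negative too, at -0.65. For the PSG list MUC4-KD was below at 5 of 12. Of these 12 genes, 6 passed the background filter on the ErbB2-KD arrays. For the others a difference rests mainly on the MUC4-KD ratio and shows no contrast between the knockdowns.

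Some single genes were opposed. KRT81 was at -3.04 in MUC4-KD and 2.96 in ErbB2-KD, a difference of -6.00 with a standard error of 0.38 (limma adjusted p = 0.000289). ITGB7 was at -2.38 and 2.38 (adjusted p = 0.000196), LTB at 3.47 and -2.04 (adjusted p = 0.000196), and BNIP3 at 2.22 and -1.47 (adjusted p = 0.000189). In ErbB2-KD these 4 genes were called against 0 (adjusted p = 0.0106 to 0.0158). THBS1 and EGFR had means of 3.57 and -1.13 in ErbB2-KD that were not called against 0 there (adjusted p = 0.076 and 0.231), and their differences from MUC4-KD were called (adjusted p = 0.0076 and 0.0149). With the MUC4-KD signs turned, KRT81 and ITGB7 would differ by 0.09 and 0.01 between the knockdowns (adjusted p = 0.895 and 0.99), and THBS1 and EGFR by -1.74 and -0.32 (adjusted p = 0.161 and 0.668), so the calls of these differences rest on the labels. LTB and BNIP3 would still differ, by -1.43 and -0.75 (adjusted p = 0.0204 and 0.0286). IFI44L was low in both, at -3.22 and -3.15, and its difference of -0.07 with a standard error of 0.55 was not called (adjusted p = 0.946). Turned, its difference would be 6.36 (adjusted p = 0.000571). TGFBI and S100P differed from ErbB2-KD under either sign, since their ErbB2-KD means were 0.43 and -0.01.

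**Figure D5:**
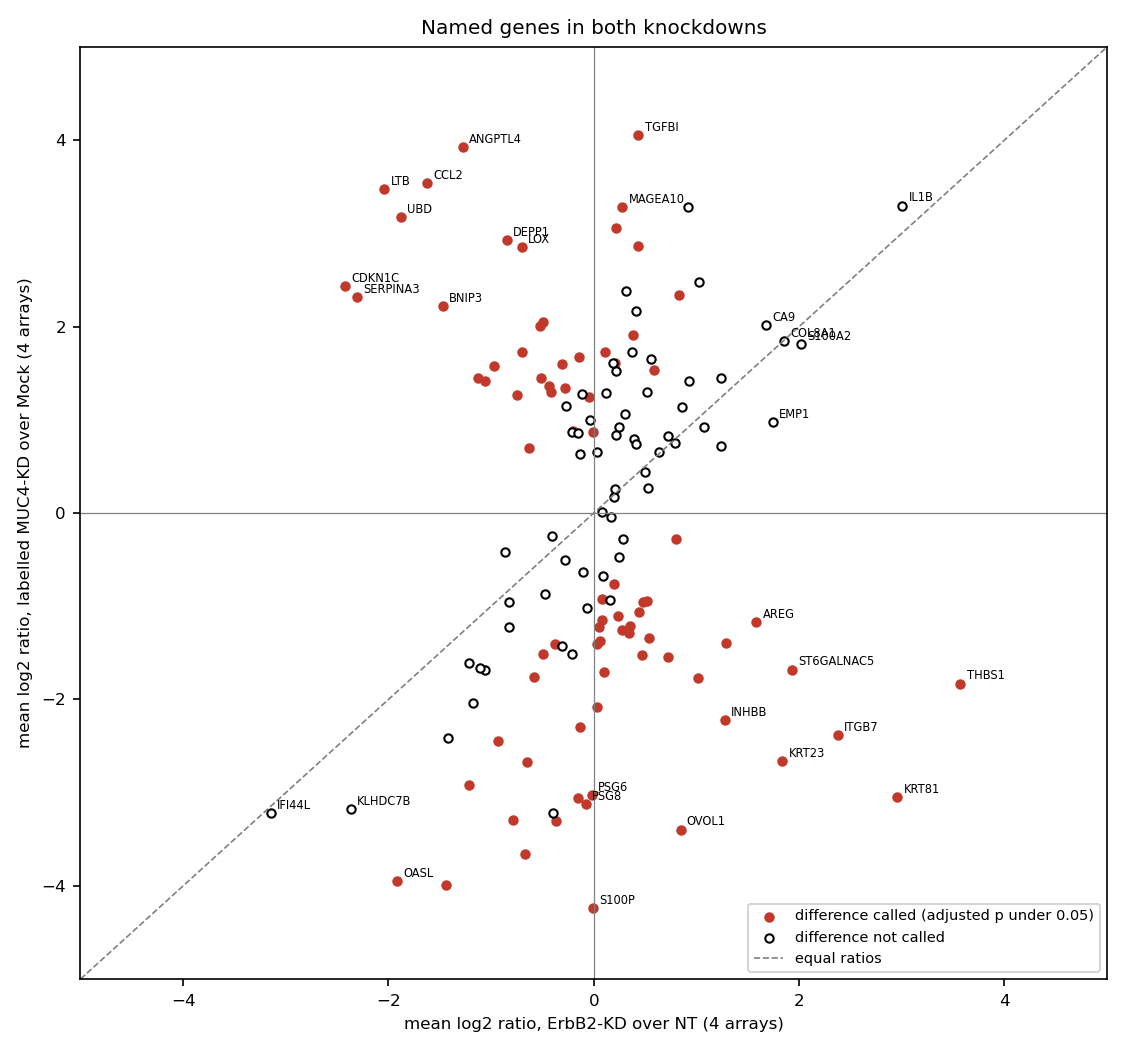
Mean log2 ratio of the 143 named genes in ErbB2-KD over NT (x axis, 4 arrays) and in the RNA labelled MUC4-KD over Mock (y axis, 4 arrays), with genes in red where limma called the difference and in white where it did not, and a dashed line at equal ratios. The difference was called for 80 of the 143, genes that were chosen by their MUC4-KD values; KRT81, ITGB7 and THBS1 lie at the lower right, LTB and ANGPTL4 at the upper left, and IFI44L near the line.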

How the data were processed

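RNA of CAPAN-2 clones was hybridised to Agilent 44K 60-mer arrays, and the authors scanned them and extracted spots with Feature Extraction (version 10.5 per the labels, 10.5.1.1 per the file headers). The deposited files give, for each spot, median signal intensity and background intensity in both dyes and the log10 ratio of red over green. The deposited table of values holds these log ratios as log10 values, with arrays of Cy3-labelled knockdown turned. For this report, median signals were background-corrected (normexp, offset 50), control spots were given weight 0, outlier spots were left out (on 55 tested probes), ratios were loess-normalised within each array, turned to labelled knockdown over labelled control, expressed as log2 and averaged by probe. A probe was tested if well above background on all 4 arrays in either RNA. Means were tested against 0 with limma 3.58.1 (R 4.3.3; lmFit, eBayes, Benjamini-Hochberg over all probes tested), called at an adjusted p under 0.05, and checked on simulated data. The difference from ErbB2-KD was a contrast over 8 arrays. No depth applies to arrays, and their number limits the precision.

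Of 41000 probes, 25398 were named by 1 current symbol (RefSeq, GRCh38.p14) through their accession, and 15602 have no symbol here. A gene takes its brightest tested probe. Named genes were MUC4, the 12 largest called differences in each direction, up to 4 per gene list with the same direction on all 4 arrays, and the genes the study measured otherwise. Genes named outside this rule, in the report's accounts of the lists, were chosen after their values were seen. The members and lists were chosen with earlier results of these data known. The labels do not say that the arrays hold separate clones, so p-values may measure technical spread. Bounds ("at least") compare a mean with the lowest signals well above background in the other channel (loess, then Aquantile) and are open to dye bias. Columns of the authors' own tests were not used. Alternatives covered offset, normalisation, filter, dye, slide, moderation, the methods' t-test, probes, pairing and single arrays. Median centring with a dye term and the turned signs of MUC4-KD were chosen after seeing the data. A few genes are not reported here.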

Additional observations from a re-analysis of the deposited data

Results flagged for a closer look

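Among the 143 named genes, 16 had 1 array farther from its neighbour than Dixon's 95% critical value for 4 samples allows, which chance gives for about 1 gene in 20. In 12 of them the array was array 4. Its log2 ratio was 0.80 for CCL2, 0.74 for EMP2, 0.78 for MAGEA10, 2.14 for MYEOV, 0.60 for LRIG1, 0.42 for ABCC3, 0.26 for GALNT14 and 0.40 for CA9, each below the other 3 arrays. It was -2.27 for IFI44L, -0.81 for PSG8, -0.57 for PSG4 and -0.36 for ST6GALNAC5, each closer to 0 than the other 3. In the other 4 genes array 2 stood out, at 2.91 for FOS, -3.03 for ASNS, -2.05 for TIMP4 and 0.31 for NDUFB5. Over all called genes with 4 values, array 4 was the farthest from the other 3 in 53% of 2845, and in 44.4% of 12263 genes tested.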

How the results depend on the processing

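Counts of probes called stayed within 1.5 times the main 5127, and those at 2-fold within 1.5 times 1545, with an offset of 10, probes detected in both channels, a dye term, slide as a random block (fitted over all 8 arrays, consensus correlation 0.0199), an intensity trend, a fit over 8 arrays, and arrays 1 and 3, and 2 and 4, averaged. The numbers called, and called at 2-fold, were 1 and 1 with median centring, with or without a dye term, 2936 and 908 with no filter on dim probes, 107 and 53 with the methods' t-test after Benjamini-Hochberg (6917 unadjusted), 2979 and 704 of 12289 with means over a symbol's probes, and 154 to 9344 and 154 to 2515 with 1 array left out. Feature Extraction's own log ratios gave 7048 and 3967. The cause of these shifts was not tested. Under median centring 131 of 142 named genes and all 32 lists lost their calls, but the medians of 26 of 32 lists moved by less than their spread between arrays. The ratio of MUC4 was 0.96 and called as a mean over its probes (limma adjusted p = 0.0199), and 0.20 to 0.38 with 1 array left out, called without array 4. Reversed under some settings, and not called in the main fit, were 5 genes: MUC1 (0.25 with median centring and a dye term, -0.92 to 0.28 with 1 array left out), ERBB2 (-0.47 to 0.016), BAX (-0.80 to 0.24), MAPK3 (0.062 with Feature Extraction's log ratios, -0.15 to 0.13 with 1 array left out) and AKT1 (-0.13 with median centring, with or without a dye term, -0.075 to 0.17 with 1 array left out).

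The difference from ErbB2-KD gave 2561 calls, 4076 with Feature Extraction's log ratios, 117 with median centring, 4433 with the MUC4-KD signs turned, and 638 to 5055 with 1 array left out (638 without MUC4-KD array 3, 5055 without array 4). The replicate numbers do not pair the arrays: deviations of same-numbered arrays correlated at -0.12, -0.24, -0.05 and -0.13, and the replicate block gave 584 calls.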
